A study of Beta vulgaris with 9 samples.

Results

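Leaves of sugar beet (Beta vulgaris L.) seedlings treated with alkaline solution for 7 days (long-term) were compared with leaves of seedlings treated for 3 days (short-term). The comparison asked which transcripts went further, stayed or came back between the 2 times. It used 6 of the 9 libraries of the series, 3 from each time, chosen by their labels. The other 3 libraries, from control leaves taken at day 0, shared the estimate of the spread and gave the starting level. Seedlings of cultivar KWS0143, 5 weeks old, had been irrigated with Hoagland nutrient solution. Both alkaline groups were treated with 75 mM of a mixture of Na2CO3 and NaHCO3. No untreated leaves of day 3 or day 7 were analysed here. Duration of treatment, leaf age and day of harvest therefore cannot be told apart. Replicates were labelled as separate samples, and where they did not come from separate plants or cultures, a p-value measures only the spread between these samples.

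Alkaline solution brings sodium together with a high pH. At high pH, iron, phosphate and some other minerals become poorly soluble, and a root has to spend protons and organic acids to take them up. In leaves, iron sits mainly in chloroplasts, in ferredoxin, in the photosystems and in enzymes with iron-sulfur clusters, and ferritin stores the surplus. Leaves short of phosphate replace phospholipids of their membranes by galactolipids, which hold no phosphate. Beets also store glycine betaine, made from choline, against osmotic stress.

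Levels are in FPKM, in which a transcript's fragments are divided by its length and by the size of the library, and were summed over the transcripts of a gene. A mean over 0.5 FPKM in at least 1 of the 3 groups was reached by 14491 of 24351 genes, 1632 of 6034 intergenic lncRNAs (lincRNAs), 282 of 2501 antisense lncRNAs and 819 of 1292 transcripts of uncertain coding potential (TUCP), and these were tested with limma on log2(FPKM + 1). That scale understates the change of low transcripts. A product name was given for 4470 of the genes tested. The libraries held no read counts here, so depth and counting error are unknown. The leading principal component of gene levels held 65.6% of the variance, and on it the long-term libraries lay at -22.8, -57.1 and -63.5, the short-term libraries at 20.3, -0.25 and -3.22 and the control libraries at -1.07, 55.8 and 71.9. Control replicate 1 thus lay among the short-term libraries, and long-term replicate 1 nearest to them. TUCP took between 38.7% and 49.0% of a library's FPKM in long-term leaves, against between 53.7% and 54.7% in short-term leaves, and protein-coding genes took between 45.5% and 50.7%, against between 39.97% and 41.5%. The median log2 change of all genes tested, long-term minus short-term, was 0.15, and each relative change below is a gene's log2 change minus this median, so that the median over all genes is 0. The p-values test the change before that subtraction.

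Of the 14491 genes, 0 passed at an adjusted p under 0.05 (limma, Benjamini-Hochberg; 0% of genes in either direction), and the lowest adjusted p was 0.0548. The counts that follow are not adjusted for the number of genes. They are a description, and how many would arise by chance was not tested. At an unadjusted p under 0.05, 3239 genes (22.4%) were higher and 774 (5.34%) lower in long-term leaves. All 3 long-term libraries lay above all 3 short-term libraries for 3957 genes (27.3%) and below them for 952 (6.57%). That split depended on the scaling. With libraries scaled by median ratios it was 1948 genes above (13.4%) and 2158 below (14.9%), with the same total FPKM in each library 6002 (41.4%) and 485 (3.35%), and with the same protein-coding FPKM 3214 (22.2%) and 1273 (8.78%).

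The count of genes passed turned on single libraries. Without long-term replicate 1, the adjusted test called 1001 genes higher (6.89%) and 269 lower (1.85%). Without long-term replicate 3 it was 103 and 39, without control replicate 1, which adds only to the spread, 238 and 72, and without short-term replicate 2, 1 and 0. Leaving out any of the other 5 libraries gave 0. Array weights, which give libraries far from their group less weight, called 3062 higher and 728 lower, and the same total FPKM 1750 and 102. Among genes without overlap, long-term replicate 1 was the long-term library nearest to the short-term ones in 60.2% of those higher and 64.3% of those lower. Genes are given by their values in every library in what follows, since none passed the test. Those named were chosen after their values were seen, mostly as the lowest unadjusted p of their list.

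**Figure D1:**
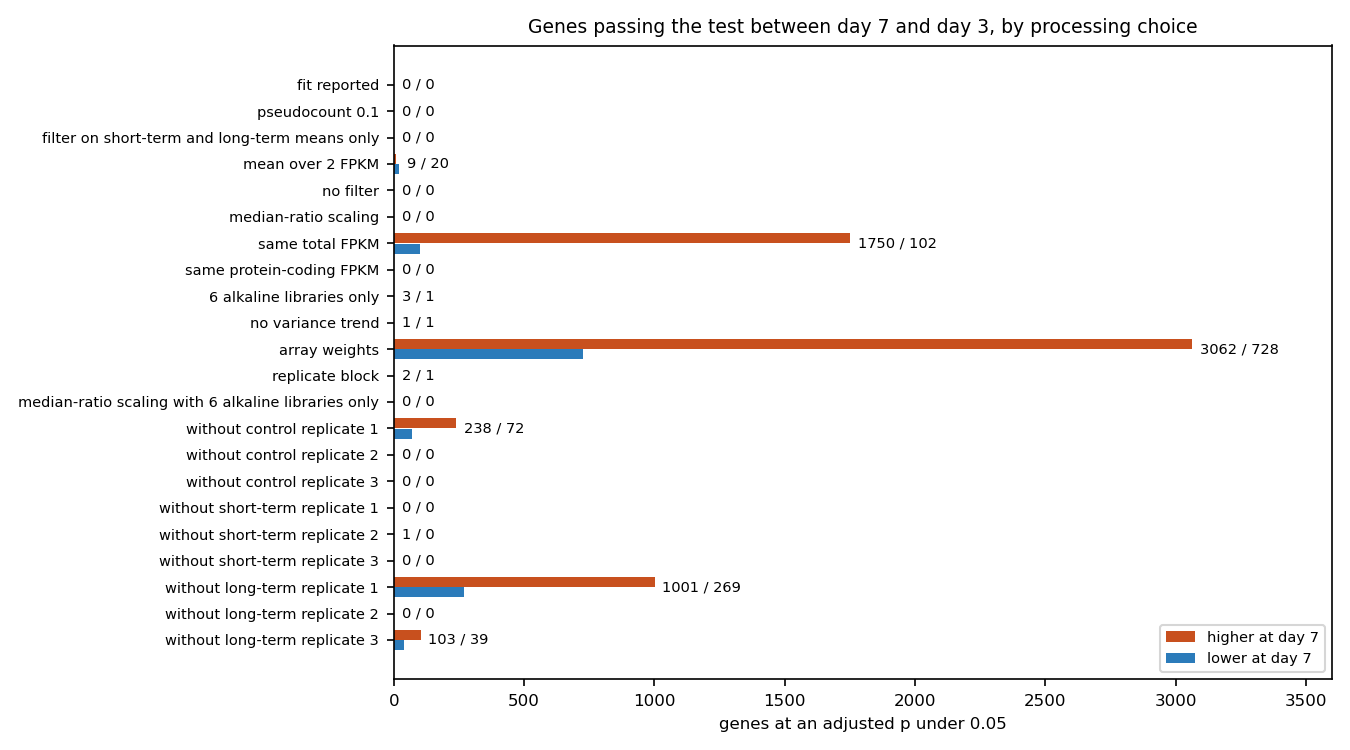
Number of protein-coding genes with an adjusted p under 0.05 between day 7 and day 3 (x axis) under each way of processing the values (y axis), higher at day 7 in orange and lower in blue, with both counts printed. The reported fit called 0 genes, and the count reached 1001 and 269 without long-term replicate 1 and 3062 and 728 with array weights.

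Against control leaves at day 0, long-term leaves had 4505 genes that rose (31.1%) and 1047 that fell (7.23%), and short-term leaves 11 (0.0759%) and 4 (0.0276%), by adjusted p from limma. Both comparisons share the control libraries. These counts are of FPKM as deposited, where the median log2 change of all genes against control was 0.26 at day 7 and 0.11 at day 3. Counts against control after scaling are not given here, so the excess of risen genes may depend on the scale. All 15 genes past the threshold at day 3 were also past it, in the same direction, at day 7. For 11 of these 15, the 95% interval of the relative change between the times lay within -1 to 1, and these were counted as held. By the same calls 0 genes progressed, 0 returned and 0 changed late, since each of these needs a call between the 2 times. The held genes with a product name were sulfite reductase 1 (LOC104889997), the ferredoxin-fed enzyme of sulfate reduction, and sorcin (LOC104903814), a calcium-binding protein. Sulfite reductase 1 stood at 56.1, 52.9 and 53.9 FPKM at day 0, 27.1, 26.98 and 31.8 FPKM at day 3 and 22.6, 22.8 and 27.7 FPKM at day 7, so both alkaline groups were near one level below the control. Sorcin stood at 4.65, 5.28 and 3.79 FPKM at day 0, 12.9, 9.296 and 12.4 FPKM at day 3 and 15.1, 18.4 and 17.2 FPKM at day 7, with every long-term library above every short-term one. The count of held genes was 355 without control replicate 1, 95 without long-term replicate 3 and between 0 and 2 without any 1 of the other libraries.

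Ordering the libraries alone was a description chosen after the values were seen. How many genes each class would hold by chance was not tested. In 796 genes (5.49%) the 3 groups were stacked upward without overlap, day 0 below day 3 below day 7. In 248 (1.71%) they were stacked downward. In 2854 genes (19.7%) day 7 lay above day 3 while day 3 overlapped day 0, and in 542 (3.74%) it lay below. In 1404 genes (9.69%) kept higher and 506 (3.49%) kept lower, day 3 and day 7 overlapped and both lay apart from day 0. A peak at day 3, above both other times, was found in 162 genes (1.12%), and a dip in 307 (2.12%). In 135 of the peaks and 283 of the dips, day 7 had come back to overlap the control libraries or had gone past them. Median-ratio scaling turned the order of the 2 stacked classes, with 251 upward (1.73%) and 506 downward (3.49%). Without control replicate 1, 2027 genes (13.99%) were stacked upward and 400 (2.76%) downward. Without long-term replicate 1, 1016 (7.01%) were stacked upward, 391 (2.70%) downward, and 421 (2.91%) had a peak at day 3.

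**Figure D2:**
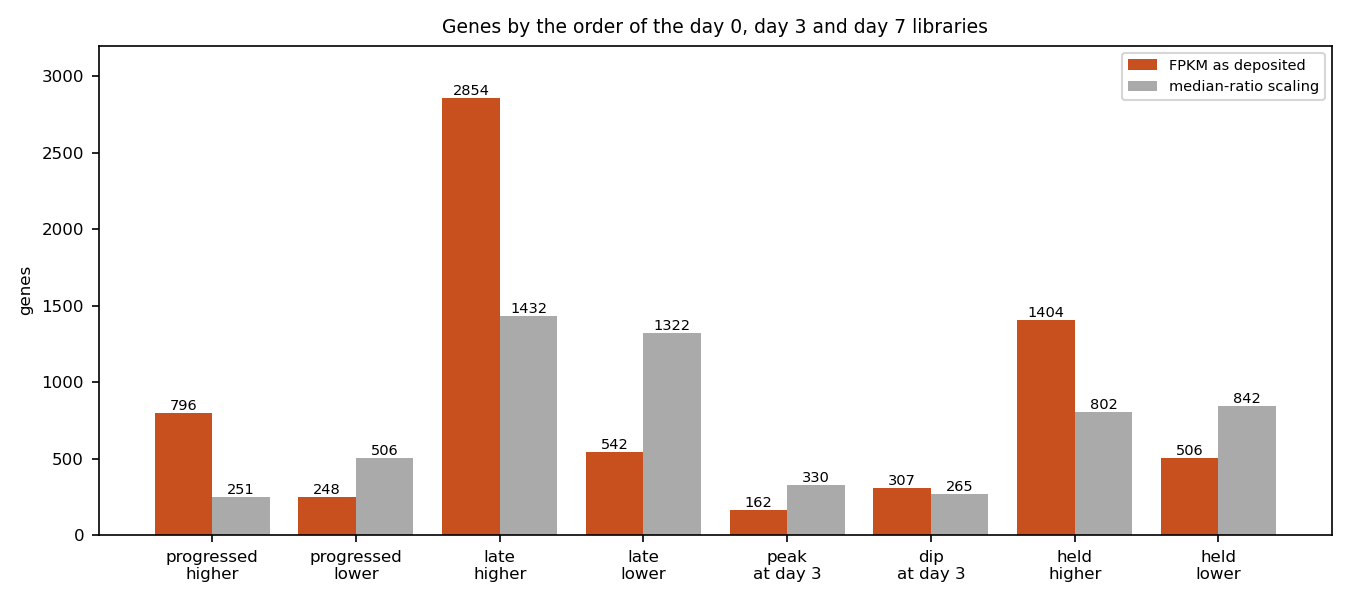
Number of genes (y axis) in each class of library order from day 0 over day 3 to day 7 (x axis), from FPKM as deposited (orange) and after median-ratio scaling (grey). Late higher was the largest class on both scales, with 2854 and 1432 genes, and progressed higher went to 251 genes, against 796 as deposited, while progressed lower went to 506, against 248. Class names here stand for library order alone. By the adjusted calls 0 genes progressed, 0 changed late and 11 were held.

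Product names sorted genes into 31 lists. No list had a member past the adjusted threshold. A member counts here as higher or lower only where all 3 long-term libraries lay on one side of all 3 short-term libraries, a share to be read against 27.3% and 6.57% of all genes. Counts after median-ratio scaling are to be read against 13.4% higher and 14.9% lower, and counts with the same total FPKM against 41.4% and 3.35%, since each scaling shifts all genes together. The shares of lower members were largest in carotenoid synthesis, the Calvin cycle and chlorophyll synthesis. All 31 lists were chosen with earlier results of these data known, and the carotenoid list was made after the values were seen. The rank of a list is therefore no support. The shares of higher members were largest in cytosolic ribosomal proteins, at 63.6%, in organic acids and respiration, at 52.6%, and in aquaporins, with 1 of 2.

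**Figure D3:**
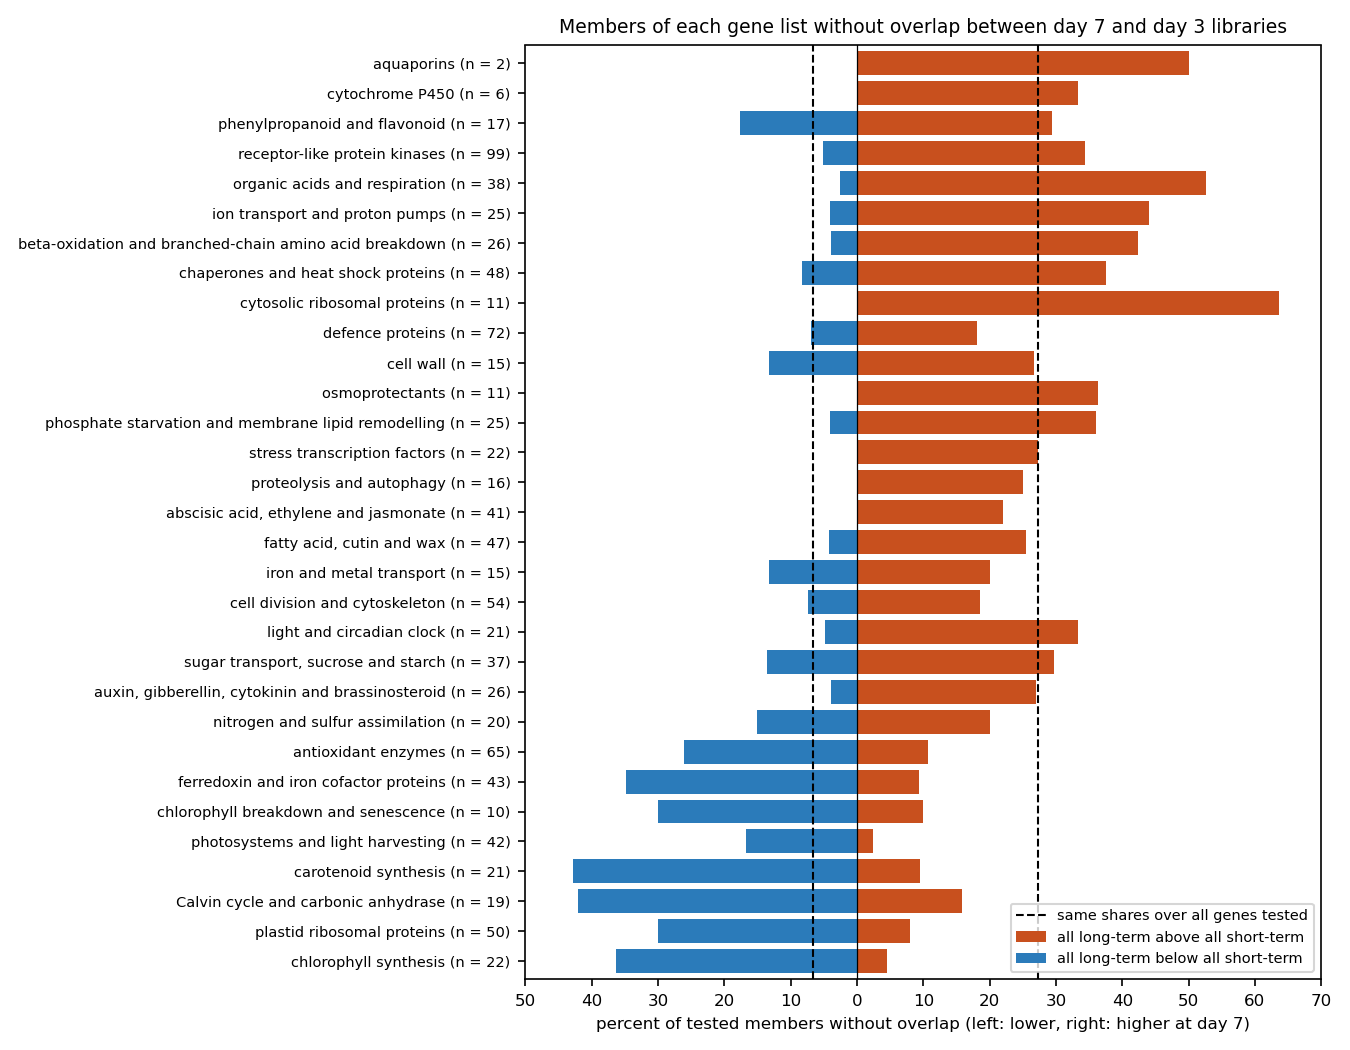
Percent of tested members of each gene list (y axis, with the number tested) whose 3 day 7 libraries all lay above (orange, to the right) or all below (blue, to the left) the 3 day 3 libraries. Dashed lines mark the shares over all genes tested, 27.3% higher and 6.57% lower, and lists are ordered by their median relative change. Chlorophyll synthesis, carotenoid synthesis and Calvin cycle lists had lower shares of 36.4%, 42.9% and 42.1%. All lists were chosen with earlier results of these data known, and the carotenoid list was made after the values were seen.

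The gene of lowest p among those with a product name was ferredoxin-1 (LOC104903711; NC_025813.2:1049282-1050056, minus strand), the iron-sulfur protein that takes electrons from photosystem I. It stood at 532, 504 and 752 FPKM in long-term leaves, against 1602, 1929 and 1722 FPKM in short-term leaves, and no libraries of the 2 times overlapped. Control leaves had 2346, 2684 and 2616 FPKM, so the level was lower at each step. The relative change was -1.72 (SE 0.17, limma, adjusted p = 0.055; 0.024 without long-term replicate 1), and the mean was 2.94-fold lower in long-term leaves. No gene passed as lower, ferredoxin-1 included, without control replicate 2 or 3, without any 1 short-term replicate or without long-term replicate 2. Ferredoxin belongs to a list of proteins that carry, build or store iron cofactors, which was put together after these values were seen. Of its 43 tested members (46 listed), 15 (34.9%) were lower and 4 higher, and after median-ratio scaling 20 and 1. With the same total FPKM it was 10 and 8. Without long-term replicate 1, the library whose removal gave the most calls, 9 members fell by adjusted p from limma. That call was made for 1.85% of all genes. As the list came from these values, its count is no support, and the reported fit called 0 members. Summed over the list, the level was between 3689 and 4034 FPKM in the long-term libraries, against between 5729 and 6316 FPKM in the short-term libraries.

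Fe superoxide dismutase (LOC104892465), the iron form of the enzyme that clears superoxide, stood at 33.7, 21.9 and 46.8 FPKM in long-term leaves, against 97.2, 150.3 and 116 FPKM in short-term leaves. Its control libraries held 118, 97.6 and 98.4 FPKM, which overlaps the short-term libraries, so the lower level was seen at day 7 only (relative change -1.99, SE 0.26, limma, adjusted p = 0.055). Ferritin-3 (LOC104905965; NW_017567345.1:283591-286668, plus strand), an iron store of plastids, stood at 1.49, 2.71 and 6.99 FPKM in long-term leaves, against 13.6, 14.98 and 21.9 FPKM in short-term leaves. With 64.2, 44.1 and 85.5 FPKM in control leaves it was stepwise lower, and its mean was 4.51-fold lower at day 7 than at day 3. The other ferritin measured, LOC104892547, stood at 16.5, 28.7 and 19.99 FPKM in long-term leaves, against 15.6, 16.1 and 21.1 FPKM in short-term leaves, with overlap. IscA-like 1 (LOC104905252), an assembly factor of iron-sulfur clusters, was at 3.85, 6.21 and 9.101 FPKM in long-term leaves, against 15.3, 15.97 and 18.03 FPKM in short-term leaves. The cluster scaffold protein ABCI8 (LOC104906589), known in Arabidopsis as a plastid SufB protein, was at 31.6, 43.2 and 55.8 FPKM in long-term leaves, against 79.5, 68.8 and 94.7 FPKM in short-term leaves. Ferredoxin-thioredoxin reductase (LOC104892793), which passes electrons of ferredoxin to thioredoxins, was at 21.6, 24.9 and 30.1 FPKM in long-term leaves, against 41.8, 50.8 and 46.3 FPKM in short-term leaves. In Fe superoxide dismutase, ferritin-3 and these 3 genes every long-term library lay below every short-term one, with relative changes between -2.21 for ferritin-3 and -0.99 for the reductase. Dihydroxy-acid dehydratase (LOC104891737), an iron-sulfur enzyme of branched-chain amino acid synthesis, was at 4.75, 4.35 and 5.93 FPKM in long-term leaves, against 12.9, 13.1 and 12.4 FPKM in short-term leaves (relative change -1.36, SE 0.16). NifU-like protein 2 (LOC104893401), another cluster scaffold, had a different course, with 22.2, 29.4 and 26.03 FPKM at day 0, 30.96, 33.3 and 30.5 FPKM at day 3 and 27.1, 24.2 and 11.7 FPKM at day 7, the highest values being those of day 3.

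Genes of metal uptake and transport did not share a direction. Of 15 tested, 3 were higher and 2 lower, and 1 and 3 after median-ratio scaling. Ferric reduction oxidase 7 (LOC104897075), which in Arabidopsis reduces iron at the chloroplast, was lower at 99.7, 64.1 and 82.6 FPKM in long-term leaves, against 128, 123 and 156 FPKM in short-term leaves. Metal tolerance protein 11 (LOC104886952), a manganese carrier in Arabidopsis, was higher at 44.7, 55.7 and 55.8 FPKM in long-term leaves, against 30.02, 28.9 and 34.5 FPKM in short-term leaves. HMA1 (LOC104894889), a metal pump of the chloroplast envelope in Arabidopsis, was at 88.01, 90.2 and 64.4 FPKM in long-term leaves, against 38.3, 53.9 and 34.5 FPKM in short-term leaves, with 17.9, 12.3 and 10.02 FPKM in control leaves, so it was stepwise higher (relative change 0.78, SE 0.24, limma, adjusted p = 0.09). Zinc transporter 4 (LOC104884321) was above day 0 at both alkaline times, with overlap between these, at 41.4, 22.03 and 13.8 FPKM at day 0, 82.4, 101 and 93.7 FPKM at day 3 and 128, 88.6 and 113 FPKM at day 7.

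**Figure D4:**
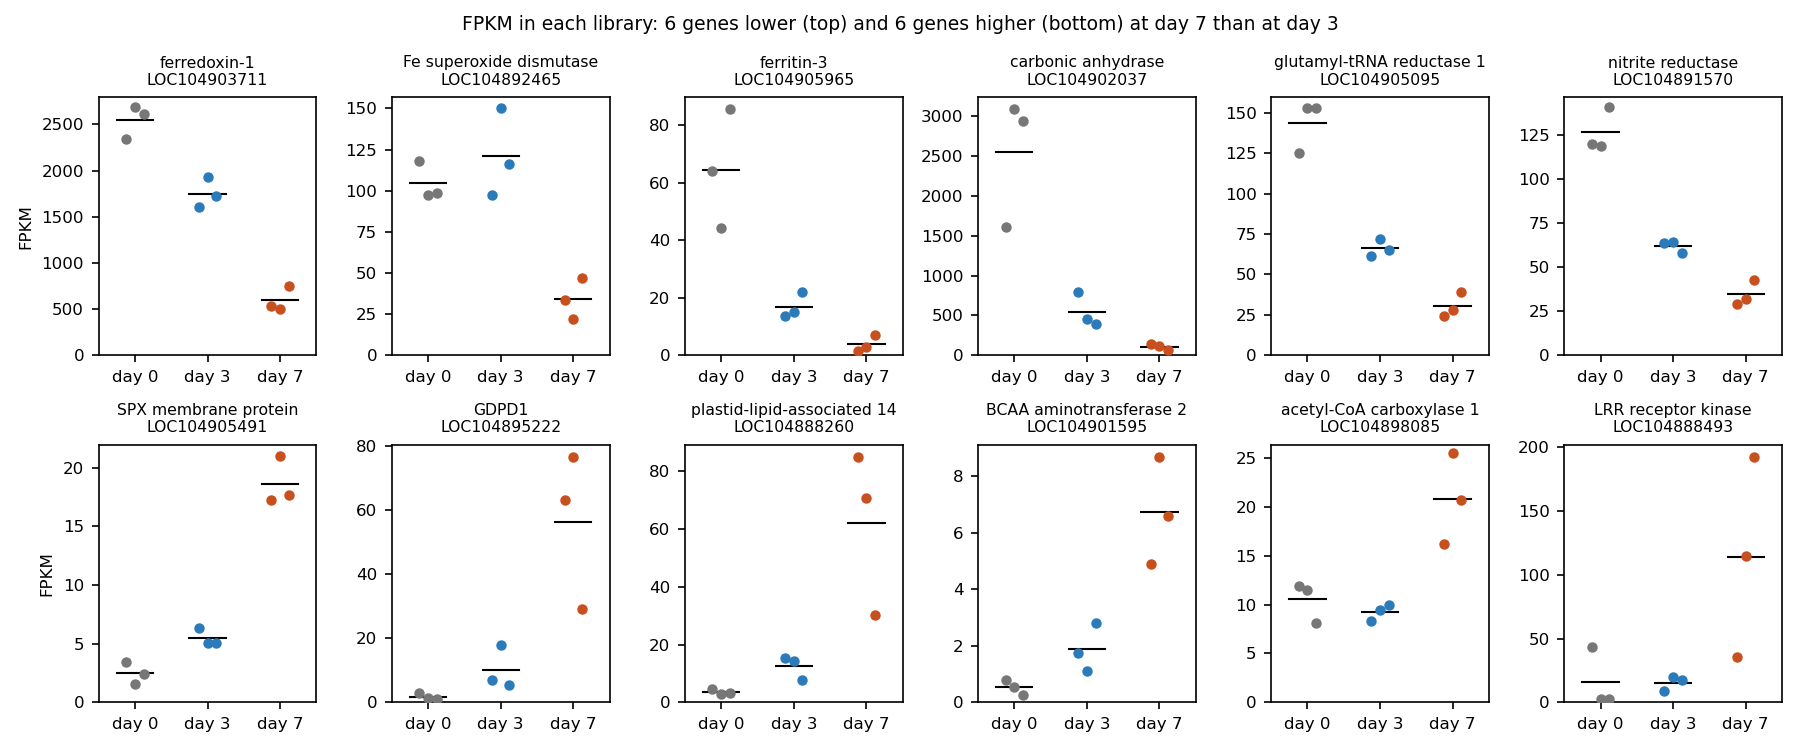
FPKM (y axis, linear, from 0, a scale of its own for each gene) of 12 genes in each library (points) with the group mean (line) at days 0, 3 and 7 of alkaline treatment. In the upper row every day 7 library lies below every day 3 library, as in ferredoxin-1, and in the lower row above, as in the SPX domain protein. The receptor kinase LOC104888493 shows control replicate 1 at 43.6 FPKM, above the short-term libraries.

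Of 42 photosystem and light-harvesting genes, 7 (16.7%) were lower and 1 higher, with a median relative change of -0.40, and 14 and 0 after median-ratio scaling. Photosystem I subunit N (LOC104895406) was at 611, 482 and 476 FPKM in long-term leaves, against 948, 978 and 752 FPKM in short-term leaves. The Rieske subunit of the cytochrome b6-f complex (LOC104903038), an iron-sulfur protein between the photosystems, was at 891, 710.4 and 737 FPKM in long-term leaves, against 1172, 1287 and 1071 FPKM in short-term leaves, and photosystem I subunit III (LOC104903946), which docks plastocyanin, at 1380.4, 1044 and 899 FPKM in long-term leaves, against 1956, 1835 and 1423 FPKM in short-term leaves. All 3 lay lower without overlap. The control libraries lay above day 3 in the subunits N and III and overlapped it in the Rieske subunit. The most abundant gene with a product name, a chlorophyll a-b binding protein (LOC104900217), was at 10517, 8765 and 7217 FPKM in long-term leaves, against 10908, 10348 and 8992 FPKM in short-term leaves, with overlap. Other chlorophyll a-b binding genes were lower than in control leaves at both alkaline times and overlapped between them, as LOC104883662 did at 581, 782 and 1525 FPKM at day 0, 352, 143 and 70.02 FPKM at day 3 and 113, 157 and 93.6 FPKM at day 7. In all, 22 of the 42 genes were lower than the control in this way and 3 were stepwise lower, against 3.49% and 1.71% of all genes.

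In the Calvin cycle and carbonic anhydrase list, 8 of 19 members (42.1%) were lower and 3 higher, and 11 and 0 after median-ratio scaling. Carbonic anhydrase LOC104902037 (NC_025819.2:33525253-33533631, plus strand), which interconverts carbon dioxide and bicarbonate, had the largest difference of the list, with 139.9, 116 and 65.9 FPKM in long-term leaves, against 797, 449.8 and 386 FPKM in short-term leaves. Control leaves held 1612, 3089 and 2947 FPKM. The relative change was -2.48 (SE 0.38, limma, adjusted p = 0.057), and the mean was 5.08-fold lower. Alpha carbonic anhydrase 1 (LOC104898358) was at 59.9, 53.96 and 56.98 FPKM in long-term leaves, against 89.04, 89.1 and 74.04 FPKM in short-term leaves, while carbonic anhydrase 2 (LOC104897387) overlapped between the times at 235, 239.6 and 272 FPKM in long-term leaves, against 264, 267 and 274 FPKM in short-term leaves. Ribulose-phosphate 3-epimerase (LOC104894019) was at 206, 198 and 260.2 FPKM in long-term leaves, against 400.2, 407 and 352 FPKM in short-term leaves, Rubisco activase (LOC104904499) at 3526, 2591 and 3793 FPKM in long-term leaves, against 5282, 5018 and 4531 FPKM in short-term leaves, and phosphoribulokinase (LOC104893060) at 717, 692 and 694 FPKM in long-term leaves, against 930.1, 994 and 859 FPKM in short-term leaves. These 3 enzymes of the cycle were stepwise lower over the 3 times.

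Of 22 genes of chlorophyll synthesis, 8 (36.4%) were lower and 1 higher, 15 and 0 after median-ratio scaling and 4 and 2 with the same total FPKM. Glutamyl-tRNA reductase 1 (LOC104905095; NW_017567325.1:20256-23702, plus strand), the controlled first enzyme of the path, was at 24.5, 27.8 and 38.9 FPKM in long-term leaves, against 61.2, 71.8 and 65.05 FPKM in short-term leaves, with 125, 153 and 153 FPKM in control leaves (relative change -1.27, SE 0.17, limma, adjusted p = 0.056). Magnesium-chelatase subunit ChlI (LOC104900584) was at 43.2, 31.1 and 34.5 FPKM in long-term leaves, against 62.4, 69.8 and 55.8 FPKM in short-term leaves, and subunit ChlH (LOC104889354) at 174, 185 and 148 FPKM in long-term leaves, against 265, 202 and 213 FPKM in short-term leaves. Chlorophyll synthase (LOC104892512), near the end of the path, was at 23.8, 18.9 and 19.2 FPKM in long-term leaves, against 26.8, 29.5 and 24.96 FPKM in short-term leaves. Protochlorophyllide reductase LOC104891616 overlapped between the times, at 31.9, 39.02 and 12.1 FPKM in long-term leaves, against 51.5, 35.8 and 32.1 FPKM in short-term leaves, and had been higher in control leaves, at 60.3, 66.1 and 120.3 FPKM.

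Of 10 genes of chlorophyll breakdown and senescence, 3 (30%) were lower and 1 higher, with a median relative change of -0.38, and 6 and 1 after median-ratio scaling. NYC1 (LOC104902204), which reduces chlorophyll b in the first step of its loss, was lower at 3.52, 5.42 and 5.603 FPKM in long-term leaves, against 11.6, 11.6 and 16.2 FPKM in short-term leaves, and its control level of 10.8, 9.18 and 11.97 FPKM overlapped that of day 3 (relative change -1.43, SE 0.19, limma, adjusted p = 0.056). Pheophytinase LOC104895050 was lower at 26.1, 21.3 and 26.4 FPKM in long-term leaves, against 35.1, 34.7 and 39.6 FPKM in short-term leaves. A gene with the same product name, LOC104907441, overlapped at 86.5, 86.1 and 61.8 FPKM in long-term leaves, against 55.5, 56.3 and 75.4 FPKM in short-term leaves and had 33.3, 30.6 and 21.5 FPKM in control leaves. Pheophorbide a oxygenase (LOC104902984), which opens the ring, was higher at 40.4, 49.1 and 42.9 FPKM in long-term leaves, against 31.1, 34.1 and 33.4 FPKM in short-term leaves. In the carotenoid list, made after the values were seen, 9 of 21 were lower and 2 higher. It was 12 and 1 after median-ratio scaling and 6 and 2 with the same total FPKM. Lycopene beta cyclase (LOC104889451) was at 18.8, 16.1 and 18.6 FPKM in long-term leaves, against 31.1, 31.3 and 33.3 FPKM in short-term leaves. The beta-carotene isomerase D27 (LOC104892629), which in rice and Arabidopsis opens strigolactone synthesis, was at 18.4, 15.4 and 23.1 FPKM in long-term leaves, against 38.9, 48.8 and 41.6 FPKM in short-term leaves. A gene of the same product name, LOC104894780, had its highest values at day 3, with 19.4, 23.8 and 13.05 FPKM at day 0, 28.2, 25.2 and 27.3 FPKM at day 3 and 22.1, 14.8 and 15.1 FPKM at day 7.

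Of 50 plastid ribosomal proteins, 15 (30%) were lower and 4 (8%) higher, with a median relative change of -0.48 and quartiles of -0.63 and -0.27. Median-ratio scaling gave 27 and 0, and the same total FPKM 7 and 6. Ribosomal protein S17 (LOC104904688) was at 156, 117 and 138 FPKM in long-term leaves, against 218, 223 and 182 FPKM in short-term leaves, and L10 (LOC104906080) at 37.04, 22.5 and 32.8 FPKM in long-term leaves, against 45.6, 58.04 and 40.8 FPKM in short-term leaves. Both were stepwise lower. Cytosolic ribosomal proteins lay the other way on the deposited scale, with 7 of 11 higher and 0 lower, and 1 and 0 after median-ratio scaling. L11-1 (LOC104903414), for one, was at 99.4, 112 and 115 FPKM in long-term leaves, against 82.6, 93.2 and 85.02 FPKM in short-term leaves.

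Among antioxidant enzymes, 17 of 65 (26.2%) were lower and 7 (10.8%) higher, 24 and 3 after median-ratio scaling, and 9 and 14 with the same total FPKM. Cu-Zn superoxide dismutase LOC104902979 was at 19.8, 13.6 and 5.01 FPKM in long-term leaves, against 51.7, 26.3 and 25.6 FPKM in short-term leaves, far under its control level of 114, 208 and 257 FPKM. Ascorbate peroxidase 6 (LOC104891011), which removes hydrogen peroxide with ascorbate, was at 29.1, 31.8 and 37.2 FPKM in long-term leaves, against 53.1, 54.1 and 48.8 FPKM in short-term leaves, and thioredoxin M-type (LOC104905713), a plastid redox carrier, at 776, 645 and 638 FPKM in long-term leaves, against 966, 1039.7 and 934 FPKM in short-term leaves. Glutathione reductase (LOC104906832) was higher at 30.4, 44.7 and 48.4 FPKM in long-term leaves, against 23.8, 23.8 and 28.4 FPKM in short-term leaves. Thioredoxin F-type (LOC104890206) overlapped, at 479, 468 and 388 FPKM in long-term leaves, against 479.9, 435 and 431 FPKM in short-term leaves. In nitrogen and sulfur assimilation, 4 of 20 were higher and 3 lower, and 1 and 7 after median-ratio scaling. Ferredoxin-nitrite reductase (LOC104891570; NC_025815.2:27425133-27428453, minus strand), which makes ammonium from nitrite in plastids, was at 29.1, 31.7 and 42.6 FPKM in long-term leaves, against 63.8, 63.96 and 57.9 FPKM in short-term leaves, with 119.8, 119 and 141 FPKM in control leaves (relative change -0.99, SE 0.15, limma, adjusted p = 0.066). NADH-dependent glutamate synthase (LOC104888263) was lower as well, at 5.42, 9.82 and 12.98 FPKM in long-term leaves, against 15.9, 15.1 and 18.97 FPKM in short-term leaves.

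Of 25 genes of phosphate starvation and membrane lipid exchange, 9 (36%) were higher and 1 lower, and 6 and 3 after median-ratio scaling. An SPX domain membrane protein (LOC104905491; NW_017567326.1:4253492-4270677, plus strand), of a family that in Arabidopsis moves phosphate into the vacuole, was at 17.2, 20.998 and 17.7 FPKM in long-term leaves, against 6.31, 5.11 and 5.03 FPKM in short-term leaves. Control leaves had 3.48, 1.56 and 2.41 FPKM. The relative change was 1.45 (SE 0.20, limma, adjusted p = 0.055; 0.025 without long-term replicate 1). No gene passed as higher, this one included, without control replicate 2 or 3, short-term replicate 1 or 3 or long-term replicate 2. GDPD1 (LOC104895222), a phosphodiesterase that breaks down deacylated phospholipids, was at 63.1, 76.6 and 29.2 FPKM in long-term leaves, against 6.96, 17.999 and 5.47 FPKM in short-term leaves, and control leaves had 2.92, 1.29 and 0.965 FPKM, so its mean was 5.55-fold higher at day 7 than at day 3. Another GDPD1 gene (LOC104897502) was at 4.61, 10.6 and 2.94 FPKM in long-term leaves, against 0.8896, 2.04 and 1.603 FPKM in short-term leaves. The phosphate exporter PHO1 homolog 1 (LOC104896336) was at 8.01, 9.24 and 7.03 FPKM in long-term leaves, against 3.997, 4.96 and 3.57 FPKM in short-term leaves, with 2.66, 0.895 and 0.686 FPKM in control leaves.

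Galactolipid synthases lay on both sides. Digalactosyldiacylglycerol synthase 2 (LOC104888511), which in Arabidopsis works under phosphate limitation, was higher at 12.996, 12.7 and 13.2 FPKM in long-term leaves, against 8.28, 9.26 and 8.68 FPKM in short-term leaves, with 7.05, 6.44 and 5.74 FPKM in control leaves. Monogalactosyldiacylglycerol synthase 2 (LOC104901921) was higher too, at 12.8, 13.2 and 8.21 FPKM in long-term leaves, against 7.85, 7.54 and 6.75 FPKM in short-term leaves, though the groups overlapped after median-ratio scaling. The main monogalactosyldiacylglycerol synthase (LOC104887802) was lower, at 25.4, 22.3 and 23.2 FPKM in long-term leaves, against 30.1, 35.1 and 34.5 FPKM in short-term leaves, with 37.03, 42.9 and 44.1 FPKM in control leaves. Plastid-lipid-associated protein 14 (LOC104888260) was at 84.9, 70.5 and 30.1 FPKM in long-term leaves, against 15.3, 14.2 and 7.75 FPKM in short-term leaves, stepwise higher over its control level of 4.75, 3.07 and 3.26 FPKM (relative change 2.01, SE 0.39, limma, adjusted p = 0.066). Acetyl-CoA carboxylase 1 (LOC104898085), which makes malonyl-CoA for long-chain fatty acids, was higher at 16.2, 25.5 and 20.7 FPKM in long-term leaves, against 8.36, 9.41 and 9.93 FPKM in short-term leaves, above control leaves at 11.9, 11.5 and 8.16 FPKM. Over the fatty acid, cutin and wax list, 12 of 47 were higher and 2 lower, and 6 and 6 after median-ratio scaling. Plastid omega-3 desaturase (LOC104903256) was lower at 25.2, 26.3 and 45.98 FPKM in long-term leaves, against 50.5, 61.2 and 49.7 FPKM in short-term leaves.

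In the organic acid and respiration list, 20 of 38 (52.6%) were higher and 1 lower, and 8 and 3 after median-ratio scaling. NAD-dependent isocitrate dehydrogenase subunit 3 (LOC104897748) was at 30.5, 41.3 and 42.5 FPKM in long-term leaves, against 24.2, 24.1 and 25.7 FPKM in short-term leaves, and 2-oxoglutarate dehydrogenase (LOC104904371) at 27.1, 32.4 and 29.5 FPKM in long-term leaves, against 23.6, 20.2 and 22.3 FPKM in short-term leaves. Citrate synthase (LOC104904585), the entry of the cycle, was at 11.6, 10.995 and 8.26 FPKM in long-term leaves, against 6.35, 6.04 and 6.501 FPKM in short-term leaves, with 5.51, 5.19 and 3.43 FPKM in control leaves. The exception was a malate dehydrogenase (LOC104895842), lower at 345, 294 and 296 FPKM in long-term leaves, against 412, 446 and 384 FPKM in short-term leaves. In the list of beta-oxidation and branched-chain amino acid breakdown, made after the values were seen, 11 of 26 (42.3%) were higher and 1 lower, and 9 and 5 after median-ratio scaling. Branched-chain aminotransferase 2 (LOC104901595), which moves the amino group of these acids, was at 4.88, 8.703 and 6.5998 FPKM in long-term leaves, against 1.76, 1.097 and 2.799 FPKM in short-term leaves (relative change 1.29, SE 0.26, limma, adjusted p = 0.066). The 2 subunits of methylcrotonoyl-CoA carboxylase, a step of leucine breakdown, stood at 16.3, 18.04 and 13.1 FPKM in long-term leaves, against 9.83, 8.48 and 11.2 FPKM in short-term leaves (alpha, LOC104894538) and at 21.7, 29.1 and 20.7 FPKM in long-term leaves, against 14.4, 12.7 and 14.96 FPKM in short-term leaves (beta, LOC104905097). Isovaleryl-CoA dehydrogenase (LOC104903261), the step before it, was at 12.4, 16.5 and 12.03 FPKM in long-term leaves, against 8.54, 8.66 and 9.83 FPKM in short-term leaves. These 4 genes of amino acid breakdown were stepwise higher over the 3 times, except that day 3 overlapped day 0 in isovaleryl-CoA dehydrogenase after median-ratio scaling.

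Of 11 osmoprotectant genes, 4 were higher and 0 lower at day 7, and 2 and 1 after median-ratio scaling. By library order, 3 were stacked upward, 1 held higher and 1 dipped at day 3. These classes took 5.49%, 9.69% and 2.12% of all genes. The abundant choline monooxygenase (LOC104897072), the first step of glycine betaine synthesis, held at 1131, 1088 and 847 FPKM at day 0, 1729.8, 1559 and 1688 FPKM at day 3 and 2063, 1956 and 1666 FPKM at day 7. The second choline monooxygenase gene (LOC104884941) was at 16.6, 18.6 and 18.04 FPKM in long-term leaves, against 11.5, 15.1 and 14.5 FPKM in short-term leaves, and betaine aldehyde dehydrogenase LOC104894203, the next step, at 42.6, 57.4 and 48.6 FPKM in long-term leaves, against 34.01, 36.4 and 35.5 FPKM in short-term leaves. Delta-1-pyrroline-5-carboxylate synthase (LOC104904817), which starts proline synthesis, dipped and came back, at 25.4, 26.6 and 23.9 FPKM at day 0, 20.7, 20.8 and 20.9 FPKM at day 3 and 30.9, 37.8 and 25.8 FPKM at day 7. Ornithine aminotransferase (LOC104901265), another way to proline precursors, was at 25.1, 29.9 and 31.02 FPKM in long-term leaves, against 21.5, 18.1 and 22.9 FPKM in short-term leaves.

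Ion transport and proton pumps had 11 of 25 members (44%) higher and 1 lower, and 8 and 1 after median-ratio scaling. Vacuolar ATPase subunit G1 (LOC104907078), part of the pump that acidifies the vacuole, was at 100.1, 114 and 118 FPKM in long-term leaves, against 71.6, 84.5 and 80.996 FPKM in short-term leaves, and cation/H+ antiporter 18 (LOC104892215) at 5.46, 5.88 and 7.01 FPKM in long-term leaves, against 4.55, 3.67 and 4.08 FPKM in short-term leaves. Chloride channel CLC-b (LOC104887561) was at 35.8, 27.3 and 26.9 FPKM in long-term leaves, against 20.6, 21.4 and 18.3 FPKM in short-term leaves, while CLC-g (LOC104901948) was lower at 8.39, 7.89 and 6.73 FPKM in long-term leaves, against 11.9, 10.4 and 10.3 FPKM in short-term leaves. The plasma membrane ATPase 4 (LOC104886535), the pump of the cell surface, overlapped at 49.6, 54.4 and 56.4 FPKM in long-term leaves, against 52.2, 38.8 and 53.9 FPKM in short-term leaves. Of the 2 aquaporins tested, NIP1-1 (LOC104882942) was higher at 3.295, 5.71 and 6.41 FPKM in long-term leaves, against 1.19, 1.59 and 1.82 FPKM in short-term leaves (mean 3.35-fold higher), and SIP1-2 (LOC104886771) overlapped at 18.1, 15.99 and 13.5 FPKM in long-term leaves, against 11.3, 15.3 and 15.2 FPKM in short-term leaves. Among 37 genes of sugar transport, sucrose and starch, 11 were higher and 5 lower, and 9 and 8 after median-ratio scaling. Trehalose-phosphate phosphatase C (LOC104885430), which removes the signal sugar trehalose 6-phosphate, was lower at 9.36, 5.54 and 7.25 FPKM in long-term leaves, against 20.9, 14.01 and 22.8 FPKM in short-term leaves. Neutral invertase B (LOC104903987), which splits sucrose, was higher at 2.17, 3.18 and 2.46 FPKM in long-term leaves, against 1.21, 1.44 and 1.27 FPKM in short-term leaves.

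Of 99 receptor-like kinases, 34 (34.3%) were higher and 5 lower, and 19 and 13 after median-ratio scaling. Of 72 defence proteins, 13 (18.1%) were higher and 5 lower, and 10 and 10 after that scaling. The LRR receptor-like kinase LOC104888493 was at 35.2, 115 and 192 FPKM in long-term leaves, against 9.09, 19.8 and 17.8 FPKM in short-term leaves. Control replicate 1 held 43.6 FPKM of it and control replicates 2 and 3 held 2.62 and 2.82, so 1 control library lay above all short-term libraries. Defensin AX1 (LOC104891640), an antimicrobial peptide of beet leaves, was at 12.5, 32.95 and 63.1 FPKM in long-term leaves, against 2.75, 3.05 and 8.14 FPKM in short-term leaves, with 6.597, 0.943 and 0.423 FPKM in control leaves. Mitochondrial phosphate carrier 3 (LOC104893898) was at 15.5, 55.9 and 53.3 FPKM in long-term leaves, against 3.41, 6.02 and 5.605 FPKM in short-term leaves, with 11.6, 0.678 and 0.142 FPKM in control leaves. GABA transporter 1 (LOC104903619), 3-ketoacyl-CoA thiolase 2 (LOC104899444) and 13-lipoxygenase LOC104894250, of jasmonate synthesis, also lay higher at day 7 without overlap. The lipoxygenase, for one, was at 3.35, 5.55 and 23.6 FPKM in long-term leaves, against 0.0536, 0.853 and 1.09 FPKM in short-term leaves, with 3.32, 0.0853 and 0.04304 FPKM in control leaves. In each of these 6 genes control replicate 1 was above control replicates 2 and 3, and long-term replicate 1 was the lowest of its group. The part of these libraries in the result was not tested.

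Other kinases lay on both sides. Gene LOC104884752, named a probable inactive LRR receptor-like kinase, was lower at 4.13, 2.35 and 3.65 FPKM in long-term leaves, against 7.12, 7.42 and 7.21 FPKM in short-term leaves (relative change -1.08, SE 0.15, limma, adjusted p = 0.057). Cysteine-rich receptor-like kinase 10 (LOC104882936) was higher at 14.8, 19.9 and 18.4 FPKM in long-term leaves, against 8.15, 10.1 and 10.5 FPKM in short-term leaves. In the phenylpropanoid list 5 of 17 were higher and 3 lower, and 3 and 5 after median-ratio scaling. Caffeoylshikimate esterase of lignin synthesis was lower in one gene (LOC104906001, 12.003, 9.65 and 10.3 FPKM in long-term leaves, against 16.97, 20.2 and 19.01 FPKM in short-term leaves) and higher in another (LOC104894329, 1.74, 3.89 and 5.68 FPKM in long-term leaves, against 0.596, 1.69 and 1.56 FPKM in short-term leaves). Polyphenol oxidase LOC109135688, which oxidises phenols, was at 20.8, 27.8 and 27.1 FPKM in long-term leaves, against 6.02, 8.31 and 8.37 FPKM in short-term leaves, and control replicate 1 again stood at 19.9 FPKM beside 5.58 and 2.96 in control replicates 2 and 3.

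Of 48 chaperones, 18 (37.5%) were higher and 4 lower, and 7 and 9 after median-ratio scaling. DnaJ 11 (LOC104905123), a co-chaperone, was at 307, 279 and 183 FPKM in long-term leaves, against 63.9, 118 and 69.1 FPKM in short-term leaves, and control leaves at 161, 101 and 103 FPKM overlapped the short-term libraries (relative change 1.48, SE 0.30, limma, adjusted p = 0.066). ClpB1 (LOC104907875), which frees proteins from aggregates, was at 6.39, 4.802 and 3.82 FPKM in long-term leaves, against 2.33, 2.16 and 2.63 FPKM in short-term leaves, stepwise above control leaves at 1.08, 0.909 and 0.688 FPKM. In the abscisic acid, ethylene and jasmonate list 9 of 41 were higher and 0 lower, and 5 and 6 after median-ratio scaling. Protein phosphatase 2C 9 (LOC104904024) was at 19.4, 31.1 and 30.04 FPKM in long-term leaves, against 11.9, 13.4 and 13.3 FPKM in short-term leaves. In the auxin, gibberellin, cytokinin and brassinosteroid list it was 7 of 26 and 1, and 2 and 5. Among stress transcription factors 6 of 22 were higher and 0 lower, 2 and 1 after median-ratio scaling, and ERF113 (LOC104897454) was at 6.59, 7.65 and 8.04 FPKM in long-term leaves, against 2.18, 2.38 and 4.38 FPKM in short-term leaves. Cell wall (4 of 15 higher, 2 lower), cell division and cytoskeleton (10 of 54, 4), light and clock (7 of 21, 1), proteolysis and autophagy (4 of 16, 0) and cytochrome P450 (2 of 6, 0) had between 18.5% and 33.3% of members higher. After median-ratio scaling the counts higher and lower were 3 and 2 for cell wall, 2 and 7 for cell division, 2 and 2 for light and clock, 2 and 0 for proteolysis and 2 and 1 for cytochrome P450. In the cell wall list, a leucine-rich repeat extensin-like gene (LOC104895470) was at 8.99, 14.1 and 5.59 FPKM in long-term leaves, against 1.001, 1.62 and 2.62 FPKM in short-term leaves, with 0.116, 0.133 and 0.247 FPKM in control leaves (relative change 1.76, SE 0.30, limma, adjusted p = 0.057). Of the genes named here and above as higher, glutathione reductase, the second choline monooxygenase, ornithine aminotransferase, monogalactosyldiacylglycerol synthase 2, caffeoylshikimate esterase LOC104894329 and L11-1 overlapped between the times after median-ratio scaling. Of those named as lower, ChlH, chlorophyll synthase, photosystem I subunit III and omega-3 desaturase overlapped with the same total FPKM.

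By library order, some genes had their highest or lowest values at day 3, though 0 genes returned by the adjusted calls. Alpha-amylase 3 (LOC104897971), which in Arabidopsis acts on starch in the plastid, was at 18.98, 21.8 and 20.9 FPKM at day 0, 23.8, 22.4 and 26.3 FPKM at day 3 and 13.7, 15.2 and 15.1 FPKM at day 7, so day 7 lay below both earlier times (relative change -0.83, SE 0.10, limma, adjusted p = 0.056). Phospholipase A1-Igamma3 (LOC104890020), which splits fatty acids from plastid lipids, was at 91.1, 84.3 and 55.5 FPKM at day 0, 122, 148 and 133 FPKM at day 3 and 73.8, 55.8 and 77.9 FPKM at day 7. Dynein light chain 1 (LOC109136148) was at 5.85, 10.3 and 6.73 FPKM at day 0, 11.6, 11.04 and 14.1 FPKM at day 3 and 7.61, 5.78 and 4.56 FPKM at day 7, and the WAT1-related gene LOC104898776 at 10.03, 8.83 and 6.82 FPKM at day 0, 13.5, 10.2 and 13.7 FPKM at day 3 and 8.09, 5.06 and 7.31 FPKM at day 7. In these 3, day 7 overlapped day 0. After median-ratio scaling day 3 overlapped day 0 in alpha-amylase 3, as in NifU-like protein 2 and D27 LOC104894780 above, and only the lower level at day 7 remained. Dips at day 3 included chloride channel CLC-b and the proline gene described above, midasin (LOC104899776), a factor of ribosome assembly, at 2.01, 2.24 and 1.74 FPKM at day 0, 1.69, 1.47 and 1.404 FPKM at day 3 and 2.57, 3.86 and 2.75 FPKM at day 7, and inositol-tetrakisphosphate 1-kinase 3 (LOC104904836) at 5.26, 4.45 and 4.19 FPKM at day 0, 2.54, 3.56 and 2.78 FPKM at day 3 and 5.58, 4.92 and 4.84 FPKM at day 7. Genes that lay apart from day 0 at both later times, with overlap between these, included 13-lipoxygenase LOC104889933 at 13.2, 14.2 and 1.33 FPKM at day 0, 129, 232 and 173 FPKM at day 3 and 317, 280.1 and 51.4 FPKM at day 7, fatty acid hydroperoxide lyase (LOC104901567), which makes leaf aldehydes, at 12.6, 9.25 and 9.37 FPKM at day 0, 32.3, 38.1 and 40.8 FPKM at day 3 and 37.1, 82.4 and 29.8 FPKM at day 7, and the clock gene LHY (LOC104901408) at 184, 231 and 181 FPKM at day 0, 133, 118 and 136 FPKM at day 3 and 148, 95.04 and 149 FPKM at day 7. In the lipoxygenase 2 long-term libraries lay above all short-term ones and 1 below, so the overlap came with a wide spread.

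Among 1632 lincRNAs, limma called 3 higher (0.184%) and 0 lower (0%) by adjusted p, and 175 (10.7%) and 85 (5.21%) by an unadjusted p under 0.05. With each library left out, it called between 1 and 17 higher and between 0 and 2 lower. Without overlap, 214 (13.1%) were higher and 142 (8.7%) lower. That split depended on the scaling, with 155 and 230 after median-ratio scaling and 287 and 87 with the same total FPKM. LNC_004744, a single-exon lincRNA of 531 bases at NC_025819.2:34474502-34475032, plus strand, rose to 3.496, 5.003 and 4.57 FPKM in long-term leaves, against 0.487, 0.352 and 0.445 FPKM in short-term leaves, and it was listed at 0 in all control libraries. The relative change was 1.75 (SE 0.18, limma, adjusted p = 0.0023), and leaving out each library in turn kept the adjusted p between 0.0045 and 0.023. LNC_000160 (NC_025812.2:14291399-14292209, plus strand) rose to 4.46, 3.66 and 2.56 FPKM in long-term leaves, against 0.345, 0.798 and 0 FPKM in short-term leaves (limma, adjusted p = 0.044; 0.071 with median-ratio scaling and between 0.016 and 0.13 with each library left out). LNC_005725 (NC_025820.2:39740758-39741451, minus strand) rose to 3.52, 3.92 and 4.99 FPKM in long-term leaves, against 0.272, 1.35 and 0.4503 FPKM in short-term leaves (limma, adjusted p = 0.044; 0.1 with median-ratio scaling and between 0.013 and 0.14 with each library left out). Both were at or near 0 in control leaves.

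LNC_004744 opens a row of 8 lincRNAs within 37.379 kb, NC_025819.2:34474502-34511880, chosen after their values were seen. All 8 had a value above 0 in at least 1 long-term library, 7 were listed at 0 in all 3 control libraries, and of the 7 that could be tested, 5 lay above day 3 without overlap. Their summed level was 147.7, 124.8 and 81.0 FPKM in long-term leaves, against 17.0, 34.6 and 2.76 FPKM in short-term leaves. In control leaves it was 0.258, 0 and 0 FPKM. LNC_004748, at the far end, was the most abundant on average, with 71.4, 61.6 and 54.6 FPKM in long-term leaves, against 9.58, 18.9 and 1.45 FPKM in short-term leaves (adjusted p = 0.13 from limma). LNC_004747 was at 17.97, 14.3 and 9.12 FPKM in long-term leaves, against 2.65, 6.12 and 0.776 FPKM in short-term leaves, LNC_004745 at 2.74, 5.74 and 5.79 FPKM in long-term leaves, against 1.38, 0.128 and 0 FPKM in short-term leaves and LNC_005044 at 12.6, 6.12 and 6.81 FPKM in long-term leaves, against 2.25, 1.56 and 0.0794 FPKM in short-term leaves. LNC_005042 and LNC_005043, which overlap LNC_005044 on the minus strand as transcripts of 1 locus, were spread unevenly, since LNC_005042 was above 0 in long-term replicate 2 alone, at 31.8 FPKM, and LNC_005043 was at 38.95, 0.0932 and 0.193 FPKM in long-term leaves, against 0, 7.54 and 0 FPKM in short-term leaves. LNC_004746 stayed under the filter. The nearest genes on either side, which carry no product name, overlapped between the times. LOC104902117 was at 49.7, 51.2 and 39.7 FPKM in long-term leaves, against 42.9, 39.4 and 38.5 FPKM in short-term leaves, and LOC104902118 at 9.45, 10.3 and 5.30 FPKM, against 6.35, 5.06 and 4.78 FPKM. The next gene outward from LOC104902117, 3-ketoacyl-CoA synthase 11 (LOC104902115), an enzyme of fatty acid elongation, was higher without overlap at 44.1, 49.4 and 62.7 FPKM in long-term leaves, against 27.1, 35.3 and 28.4 FPKM in short-term leaves.

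**Figure D5:**
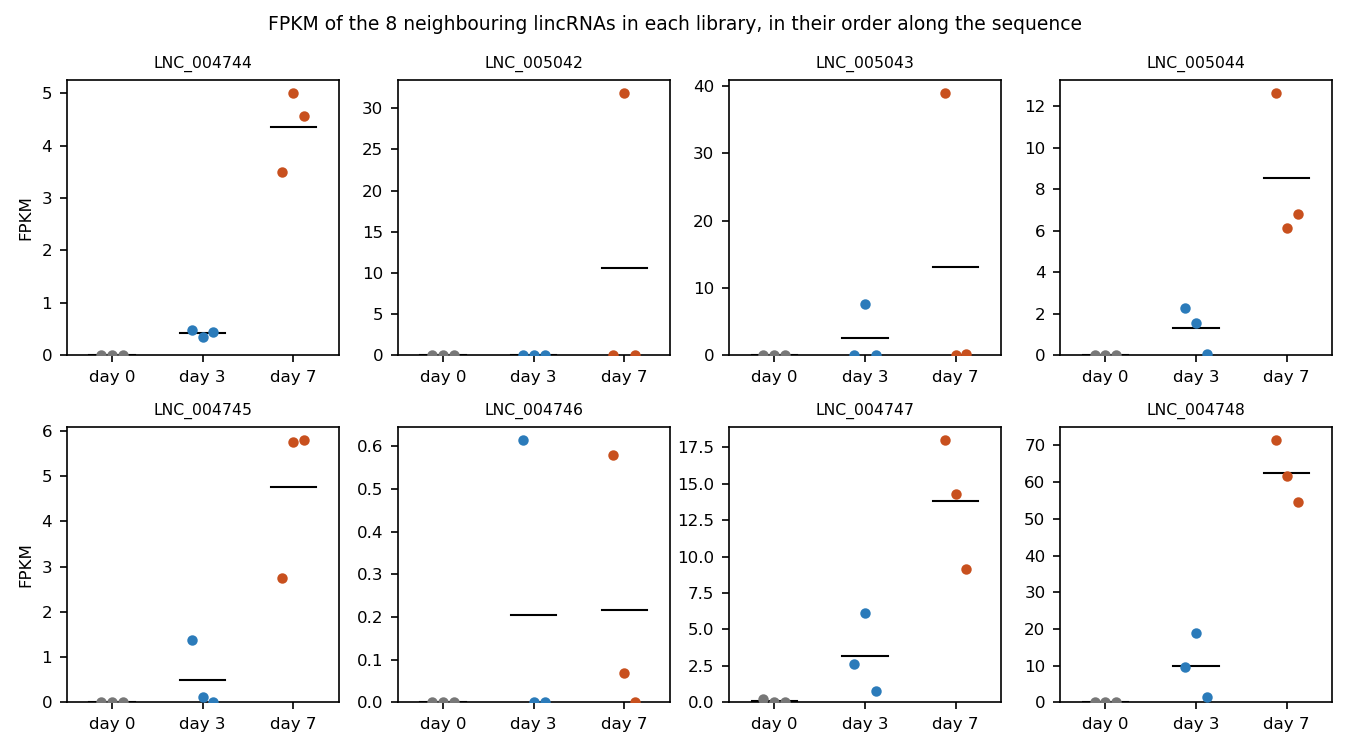
FPKM (y axis, linear, a scale of its own for each panel) of the 8 lincRNAs of the row on NC_025819.2 in each library (points) with the group mean (line) at days 0, 3 and 7, in their order along the sequence. Day 7 lies above day 3 without overlap in LNC_004744, LNC_005044, LNC_004745, LNC_004747 and LNC_004748, and all panels but that of LNC_004747 are at 0 at day 0.

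Among lincRNAs that did not pass, LNC_008366 was at 19.3, 22.7 and 29.8 FPKM in long-term leaves, against 5.15, 8.16 and 2.405 FPKM in short-term leaves and near 0 in control leaves (relative change 1.94, SE 0.34, limma, adjusted p = 0.059). LNC_006175 (NW_017567364.1:107141-108778, plus strand) was at 546, 1154 and 1947 FPKM in long-term leaves, against 156, 254 and 328 FPKM in short-term leaves. On the lower side, LNC_007572 (NW_017567618.1:102607-103816, plus strand) was at 1.38, 0.795 and 0.867 FPKM in long-term leaves, against 3.48, 2.81 and 2.99 FPKM in short-term leaves, and LNC_005459 (NC_025820.2:772899-777250, minus strand) peaked at day 3, with 0.497, 0.397 and 0 FPKM at day 0, 1.93, 0.777 and 1.76 FPKM at day 3 and 0.0308, 0 and 0.1104 FPKM at day 7. LNC_005395 was at 0, 0 and 4.71 FPKM in long-term leaves, against 25.6, 6.55 and 25.8 FPKM in short-term leaves and at 0 in control leaves, so it was seen mainly at day 3 (relative change -3.44, SE 0.70, limma, adjusted p = 0.13). LNC_000365 and LNC_008194 were stepwise lower. LNC_000365 was at 511, 474 and 552 FPKM in long-term leaves, against 734, 736 and 732 FPKM in short-term leaves, and LNC_008194 at 1151, 893 and 1201 FPKM in long-term leaves, against 1508, 1828 and 1519.6 FPKM in short-term leaves. By library order, 30 lincRNAs (1.84%) were stacked upward and 33 (2.02%) downward, and 32 (1.96%) peaked and 30 (1.84%) dipped at day 3. A higher level was held by 52 (3.19%) and a lower one by 71 (4.35%). After median-ratio scaling, 19 lincRNAs were stacked upward and 63 downward, with 35 peaks and 28 dips. On that scale a higher level was held by 30 and a lower one by 82. Of those named in the study, LNC_007731 held at 22.96, 28.5 and 28.6 FPKM at day 0, 11.2, 15.6 and 9.79 FPKM at day 3 and 11.5, 10.8 and 11.1 FPKM at day 7, and LNC_003048 overlapped at all times, with 15.8, 16.2 and 13.8 FPKM at day 0, 13.2, 18.8 and 13.8 FPKM at day 3 and 13.01, 14.6 and 17.9 FPKM at day 7.

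Of the 282 antisense lncRNAs, limma called 1 higher and 1 lower by adjusted p (0.355% each), and 25 (8.87%) and 18 (6.38%) at an unadjusted p under 0.05. Without overlap, 36 (12.8%) were higher and 34 (12.1%) lower, against 21 and 40 after median-ratio scaling and 46 and 25 with the same total FPKM. LNC_000585 (NC_025813.2:6845189-6848128, plus strand), opposite LOC104908309, rose to 0.892, 0.734 and 0.891 FPKM in long-term leaves, against 0, 0 and 0.0784 FPKM in short-term leaves (adjusted p = 0.036 from limma, between 0.069 and 0.26 with each library left out). LNC_005477 (NC_025820.2:3848994-3851400, minus strand), opposite a gene without a product name, fell to 1.54, 0.655 and 0.838 FPKM in long-term leaves, against 3.23, 3.08 and 3.44 FPKM in short-term leaves, and control leaves held 4.54, 4.13 and 4.85 FPKM (adjusted p = 0.036 from limma, between 0.017 and 0.26 with each library left out). The libraries kept the strand, and for the counting its use is not stated in the paper or labels. LNC_001194 was at 5.35, 4.03 and 3.62 FPKM in long-term leaves, against 1.58, 2.89 and 2.23 FPKM in short-term leaves without passing (adjusted p = 0.22 from limma).

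Of the 819 TUCP, 0 passed (limma; 67, or 8.18%, higher and 85, or 10.4%, lower at an unadjusted p under 0.05), while 101 (12.3%) lay above and 114 (13.9%) below day 3 without overlap. After median-ratio scaling 70 lay above and 185 below, and with the same total FPKM 161 and 54. TUCP_000374 was at 4.26, 2.49 and 3.43 FPKM in long-term leaves, against 0.6896, 0.3504 and 0.789 FPKM in short-term leaves and near 0 in control leaves (adjusted p = 0.054 from limma). TUCP_000555 was at 8.33, 20.3 and 2.76 FPKM in long-term leaves, against 0.402, 0.613 and 0.211 FPKM in short-term leaves. The lower ones of smallest p included TUCP_001099 at 18785, 16375 and 18553 FPKM in long-term leaves, against 22911, 23365 and 22056 FPKM in short-term leaves and TUCP_001124 at 9738, 9256 and 9920.4 FPKM in long-term leaves, against 13197, 11809 and 12457 FPKM in short-term leaves. The locus XLOC_042718 alone held between 7.29% and 14.5% of a library in long-term leaves, against between 16.4% and 18.5% in short-term leaves, and of its transcripts, LNC_008161 reached 39463 FPKM in long-term replicate 2, against at most 13.0 FPKM in any other library.

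In leaves measured whole, fewer cells of a type and less RNA per cell cannot be told apart. Markers of mesophyll were present throughout, as the tissue label says, and 18 of 18 were tested. Their summed level was between 20557 and 29939 FPKM in long-term leaves, against between 26250 and 35561 FPKM in short-term leaves, with 0 higher and 4 lower without overlap. Of 5 guard cell markers 4 were tested, with sums between 11.9 and 15.1 FPKM in long-term leaves, against between 9.28 and 10.2 FPKM, and 3 higher without overlap. Phloem markers (3 of 3 tested) summed to between 21.9 and 31.2 FPKM, against between 19.3 and 21.4 FPKM, with 2 higher without overlap. Markers of dividing cells (5 of 5) overlapped in their sums, at between 9.91 and 13.4 FPKM, against between 8.22 and 10.2 FPKM, with 2 higher. They were picked by product name and include a transcription factor named for binding cyclin D. Epidermal markers (2 of 3) overlapped, at between 8.58 and 11.1 FPKM, against between 8.495 and 9.99 FPKM. The 1 marker of xylem and fibres did not pass the filter. Of 4 genes listed for root by product name, the 1 tested, a CASP-like protein, was between 1.83 and 3.52 FPKM, against between 1.88 and 3.34 FPKM. These sums and counts are of FPKM as deposited, where 27.3% of all genes lay higher and 6.57% lower. Sums after median-ratio scaling are not given here. The part of these cell types in the lists above was not tested.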

How the data were processed

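RNA of leaves was sequenced by the authors from ribosomal RNA-depleted, strand-keeping libraries, aligned with HISAT2 and assembled with StringTie 1.3.1, and FPKM per transcript was deposited for 43133 transcripts in 9 libraries. The methods name Cuffdiff for FPKM. No genome build is named in the paper or labels, and sequence names and positions are those of the files. FPKM was summed over rows typed protein_coding for each of 24351 gene identifiers (1044 of these rows carry an identifier of an annotated lncRNA), and 1138 rows that share a transcript identifier were kept. LincRNAs, antisense lncRNAs and TUCP were tested row by row. All columns belonged to the 9 libraries.

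Features whose mean passed 0.5 FPKM in any group were fitted as log2(FPKM + 1) with limma 3.58.1 in R 4.3.3, with 3 group means over 9 libraries and a variance trend. P-values are two-sided, adjusted within each kind by Benjamini-Hochberg, with a threshold of 0.05. Progressed and returned genes needed a relative change of at least 0.5 in size, short-term minus control, and late genes one below it. The members, the 31 gene lists, the 7 marker lists and the tests were chosen with earlier results of these data known. Genes were to be named from the 12 highest and 12 lowest that passed with no overlap of libraries, a mean of at least 1 FPKM and the same direction under each scaling. As none passed, genes were named by list (lowest p, highest level), by course and from the study's text. Product names end at their first comma. Steps were tested on simulated data. Python 3.11.15, numpy 2.4.6, pandas 2.3.3, SciPy 1.17.1 and matplotlib 3.10.9 were used. Alternatives covered the pseudocount, filter, scaling, libraries fitted, variance trend, array weights, a replicate block and leaving out each library. Fold changes of means are ratios of mean FPKM. The study's own comparisons and qRT-PCR were not used here.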

Additional observations from a re-analysis of the deposited data

How the results depend on the processing

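Counts are given as higher and lower, long-term against short-term, at an adjusted p under 0.05 (limma). For genes (0 and 0 as reported) they were 9 and 20 with a mean over 2 FPKM, 1750 and 102 with the same total FPKM, 3 and 1 with the 6 alkaline libraries only, 1 and 1 without a variance trend, 3062 and 728 with array weights, and between 0 and 1001 higher and 0 and 269 lower with each library left out. For lincRNAs (3 and 0) they were 38 and 9 with no filter, 1 and 1 with the 6 alkaline libraries only, with or without median-ratio scaling, and 1 higher with a pseudocount of 0.1, a mean over 2 FPKM, median-ratio scaling alone or adjustment together with antisense lncRNAs. With each library left out they were between 1 and 17 higher and 0 and 2 lower. For antisense lncRNAs (1 and 1) they were 10 and 2 with no filter. They were 0 and 0 with a pseudocount of 0.1, the 6 alkaline libraries only, these with median-ratio scaling, or the joint adjustment, 0 higher with a mean over 2 FPKM or median-ratio scaling and 0 lower with the same total FPKM. With each library left out both lay between 0 and 1. For TUCP (0 and 0) they were 2 and 6 with a mean over 2 FPKM or median-ratio scaling, 5 and 5 with array weights, 1 higher with the same total FPKM or without the trend, and between 0 and 10 higher and 0 and 4 lower with each library left out.

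The genes counted as progressed, returned and late (0 each) were 13, 2 and 14 with a mean over 2 FPKM, 116, 76 and 1660 with the same total FPKM, and 555, 149 and 3086 with array weights. Without a variance trend 1 progressed and 1 was late. With each library left out they reached between 0 and 122, 0 and 60, and 0 and 1099. Held genes (11) were 7 with no filter, 31 with median-ratio scaling, 7 with the same total FPKM, 1533 with array weights and between 0 and 355 with each library left out. The cause of these moves was not tested. Median-ratio scaling of the 6 libraries and the order of libraries were chosen after the data were seen.

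With the replicate number as a block, 2 genes were higher and 1 lower, 1 lincRNA was higher, antisense lncRNAs had 0 and 0, 3 genes progressed and 0 held. Same-numbered long-term and short-term libraries deviated from their group means with correlations of 0.35, 0.02 and 0.13. Not every library correlated best with its own number. So few libraries per group cannot decide whether same-numbered samples shared a batch or harvest.

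The log2 change before subtraction of the median changed sign in 10 of the 134 named features, none of which passed in the reported fit. With the same total FPKM it was 0.162 for LNC_003048, 0.0609 for LNC_007731, 0.118 for LOC104889933, 0.159 for LOC104890206, 0.0621 for LOC104897387 and 0.165 for LOC104901408. With array weights it was 0.0185 for LNC_003048, 0.451 for LOC104889933 and 0.0168 for LOC104890206, and with median-ratio scaling -0.0191 for LOC104886535, in all 9 or the 6 alkaline libraries. With each library left out it lay between -0.123 and 0.147 for LNC_003048, -0.84 and 1.90 for LNC_005043, -0.235 and 0.0773 for LNC_007731, -0.922 and 0.235 for LOC104883662, -0.52 and 0.782 for LOC104889933, -0.0714 and 0.0792 for LOC104890206, -0.116 and 0.203 for LOC104901408, and -0.146 and 0.572 for LOC104901567. Without read counts, what depth limits cannot be given here.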
